A study of Mus musculus with 12 samples.

Results

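The genes of telomerase and of the shelterin complex were examined in CD8+ T_prog_ cells with and without UTX. They comprised 9 of the 25860 genes listed in the RNA-seq table, taken by symbol: *Tert*, *Terf1*, *Terf2*, *Terf2ip*, *Tinf2*, *Acd*, *Pot1a*, *Pot1b* and *Rtel1*. All 9 passed the filter on low values and were among the 14459 genes tested. The same 9 symbols were looked up in the ATAC-seq table, where 5 of 23932 listed peaks carried one of them. The genes were chosen by the measured differences of their mRNA and peaks between the genotypes in these same libraries, so those values are given as a description and without a test.

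The cells were sorted from pancreatic lymph nodes, and RNA-seq and ATAC-seq were each made from 3 libraries per genotype. *NOD-TCR 8.3 UTX TCD* mice carried floxed *Kdm6a* alleles (*UTX fl/fl*), the X-linked gene that encodes the chromatin regulator UTX, with *Lck-Cre*, a Cre recombinase driven by a T lineage promoter. *NOD-TCR 8.3 WT* mice were UTX-sufficient, and for the *NOD-UTX TCD* line such controls are described as littermates without Cre. Mice of both genotypes were female, on the nonobese diabetic background, and carried the NY8.3 T cell receptor transgene, which recognizes the β cell antigen IGRP; the floxed and Cre alleles came from a B6 line backcrossed to NOD. The gate was Ly108 without CXCR6 in the series description and Ly108 without CD39 in the methods, and the age of the mice sequenced is not given in the sources used here.

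Telomerase adds telomeric repeats to chromosome ends. Its reverse transcriptase, TERT, copies the template in an RNA subunit, *Terc*, and TERT is generally the limiting component in somatic cells; activated lymphocytes are among the normal cells that switch telomerase on. Shelterin binds the repeats, hides the ends from DNA damage signaling and controls the access of telomerase, and mice carry a pair of *Pot1* genes where most mammals have a single one.

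The targeted gene was read first. *Kdm6a* had normalized counts, that is reads divided by the size factor of the library, of 28365, 28949 and 29172 in WT libraries 1 to 3 and of 24158, 24792 and 24579 in UTX TCD libraries 1 to 3. Each UTX TCD value was under the lowest WT value, in the direction of the labels, by a small margin (log2 fold change of -0.23, SE 0.04, limma adjusted p = 0.00114). The table has a single value per gene, so reads from the deleted part were not separated from the rest. In ATAC-seq, *Kdm6a* had 4 listed peaks, all in an intron and all with a lower mean log2 concentration in UTX TCD cells, by -0.82 to -0.42.

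Markers of CD8 T cells were abundant in every library. The 6 genes *Cd8a*, *Cd8b1*, *Cd3d*, *Cd3e*, *Cd3g* and *Trac* summed to 875499, 829408 and 847571 normalized counts in WT and to 869077, 841632 and 776019 in UTX TCD libraries. The most abundant was *Cd8a*, and none of the 6 was called with limma, edgeR or DESeq2 (4 had an unadjusted limma p under 0.05). At the limma adjusted p alone, 1 of the 6 was higher and 3 were lower, against 20.2% and 20.5% of all genes tested. The log2 fold changes of all 6 lay between -0.37 and 0.17. Progenitor markers were abundant as well, with *Tcf7* the highest of 6, and summed to 541456, 538355 and 500598 in WT and to 536732, 507154 and 543704 in UTX TCD libraries. Of these 6, *Ikzf2* was called with limma (log2 fold change of 0.78, SE 0.17, limma adjusted p = 0.00662). With edgeR 2 of the 6 were called and with DESeq2 1; *Myb*, named after its values were seen, lay just under the fold limit with limma (log2 fold change of 0.48, SE 0.16, limma adjusted p = 0.0401). The 6 mediator markers summed to 212583, 170586 and 209009 in WT and to 59827, 60678 and 49646 in UTX TCD libraries, and *Thy1*, *Cxcr6* and *Havcr2* were called lower. Most of the sum in WT libraries was *Thy1*, and without it the sums were 42605, 35525 and 45622 in WT and 25405, 27443 and 27759.6 in UTX TCD libraries. *Havcr2* was near the detection limit.

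*Tert*, the catalytic subunit, had normalized counts of 305, 319.9 and 320.3 in WT libraries 1 to 3 and of 713, 773 and 825 in UTX TCD libraries 1 to 3. Every UTX TCD library was well above every WT library, and the gap between the groups was wider than the range within either. Mean *Tert* was 315 ± 8.66 (SD, n = 3) for WT and 770.2 ± 56.0 (SD, n = 3) for UTX TCD libraries, a ratio of 2.44. On the scale of log2(normalized count + 1), the UTX TCD minus WT difference, called the log2 fold change, was 1.28 (SE 0.10). The value rested on 308, 324 and 420 reads in WT and on 317, 965 and 1119 reads in UTX TCD libraries. UTX TCD library 1 held 61512402 counted reads, the fewest, against 144503203 to 193568919 in WT and 175462433 and 187275082 in the other UTX TCD libraries, and its 317 *Tert* reads lay between those of WT libraries 1 and 2. When single libraries were omitted, the log2 fold change ranged from 1.23 to 1.34.

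A gene was called at a Benjamini-Hochberg adjusted p under 0.05 from limma together with an absolute log2 fold change over 0.5, and 2538 of 14459 genes (17.6%) were called. Of the 9 telomerase and shelterin genes, 1 lay past these limits, *Tert*, which was higher; since the genes were chosen by these differences, the count is a description and not a test. Of all genes tested, 10.5% were called higher and 7.05% lower. The groups did not overlap in 2 of the 9, *Tert* and *Terf2*, both higher, and in 51.9% of the genes tested (25.8% with UTX TCD higher). Among all genes tested, 567 had a higher log2 fold change than *Tert*. In bulk libraries, more cells with *Tert* mRNA and more *Tert* mRNA per cell cannot be told apart.

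**Figure D1:**
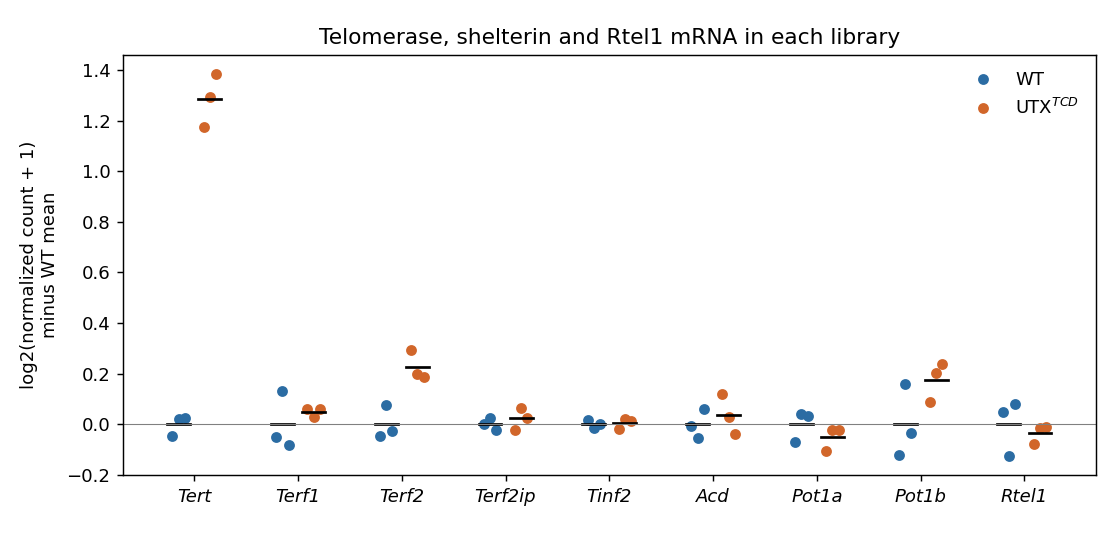
Points are single RNA-seq libraries (blue, WT; orange, UTX TCD; 3 each), the vertical axis is log2(normalized count + 1) minus the WT mean of the gene, and black bars are group means. *Tert* lies 1.28 above its WT mean in UTX TCD libraries, *Terf2* lies 0.23 above, and in the other 7 genes the groups overlap.

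Among the shelterin proteins that bind double-stranded repeats, *Terf2*, which encodes TRF2, the protein that folds chromosome ends into protected loops, had normalized counts of 9715, 10584 and 9849 in WT and of 12306, 11524 and 11442 in UTX TCD libraries. The UTX TCD libraries were all higher, by a smaller margin than for *Tert*. The means were 10049 ± 468 (SD, n = 3) and 11757 ± 477 (SD, n = 3), with a log2 fold change of 0.23 (SE 0.05), under the limit of 0.5. *Terf1*, which encodes TRF1, the protein that eases replication through the repeats, had 5532, 6283 and 5419 in WT and 5974, 5853 and 5970 in UTX TCD libraries. Its UTX TCD values all fell inside the WT range, with a log2 fold change of 0.05 (SE 0.06).

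*Terf2ip* encodes RAP1, which joins shelterin through TRF2. It had 6336, 6439 and 6245 normalized counts in WT and 6247, 6621 and 6452 in UTX TCD libraries, a log2 fold change of 0.02 (SE 0.04), and the groups overlapped. *Tinf2* encodes TIN2, the hub that bridges the double-stranded and the single-stranded binding proteins. It had 6521, 6391 and 6458 in WT and 6379, 6542 and 6521 in UTX TCD libraries, a log2 fold change of 0.01 (SE 0.04). Of the 9 genes, *Tinf2* varied least within a genotype, with a pooled SD of 0.02 on the log2 scale against a median of 0.10 over all genes tested. *Acd* encodes TPP1, which brings telomerase to the chromosome end and ties POT1 to TIN2. It had 4073, 3936 and 4264 in WT and 4443, 4170 and 3983 in UTX TCD libraries, a log2 fold change of 0.04 (SE 0.06), again with overlapping groups.

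The single-stranded binding proteins POT1a and POT1b differ in role, POT1a repressing the ATR damage response and POT1b limiting resection of the 5′ end. *Pot1a* had 6043, 6526 and 6499 normalized counts in WT and 5902, 6247 and 6258 in UTX TCD libraries, a log2 fold change of -0.05 (SE 0.05). *Pot1b* had 3641, 4424 and 3868 in WT and 4213, 4561 and 4673 in UTX TCD libraries, a log2 fold change of 0.18 (SE 0.08). In both genes the groups overlapped; WT library 2 of *Pot1b* reached into the UTX TCD range. *Pot1b* varied most of the 9 genes within a genotype, with a pooled SD of 0.12. The transcripts of *Pot1a* and *Pot1b* in the GENCODE annotation shared 0 stretches of 50 bases, the length of 1 read, and those of *Terf1* and *Terf2* also shared 0.

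*Rtel1* encodes a helicase that unwinds the telomere loop during replication. It had 12031, 10680.3 and 12314 normalized counts in WT and 11049, 11545 and 11568 in UTX TCD libraries, and the UTX TCD values lay within the WT range (log2 fold change of -0.03, SE 0.06). Across the 9 genes the median log2 fold change was 0.04, and without *Tert* it was 0.03, against -0.0002 over all genes tested. The signs of the small values depended on the scaling: when all libraries were set to 1 total, *Pot1a* moved from -0.05 to 0.01 and *Rtel1* from -0.03 to 0.03.

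Levels were compared between genes as normalized counts per kilobase of RefSeq exon. In WT cells the order from high to low was *Rtel1* (2539), *Acd* (2381), *Pot1a* (2119), *Terf1* (2118), *Terf2* (2099), *Tinf2* (2046), *Terf2ip* (1762), *Pot1b* (572) and *Tert* (73.0). Neighbors in that order had overlapping library values from *Rtel1* to *Acd* and from *Pot1a* down to *Tinf2*, whereas *Pot1a*, *Terf2ip*, *Pot1b* and *Tert* each stood below the preceding gene without overlap. *Tert* was the lowest of the 9 in both genotypes, at the level percentile 22.6 of tested genes in WT and 29.6 in UTX TCD cells, where it reached 178 per kilobase. In UTX TCD cells *Terf2* came second at 2456 per kilobase, with values overlapping those of *Rtel1* (2477) and *Acd* (2444). Together the 7 shelterin genes reached 13098 ± 323 (SD, n = 3) per kilobase for WT and 13621 ± 83.9 (SD, n = 3) for UTX TCD libraries.

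Some of these gene models overlap others. *Tinf2* lies within the bounds of *Gmpr2*, which is transcribed from the opposite strand, and *Acd* overlaps *Carmil2* by 41 bases and *Pard6a* by 81 bases, both on the opposite strand. *Terf2ip* overlaps the transcribed pseudogene *Gm6793* by 1604 bases of the opposite strand, a pseudogene model on the same strand covers 9817 bases of *Terf2*, and one on the opposite strand covers 1411 bases of *Pot1b*. These are overlaps of whole gene bounds, introns included, and shared exon bases were not computed. The pseudogene models over *Terf2* and *Pot1b* are not among the genes listed for RNA-seq. The strand setting of the read counting is not stated, and whether any reads of the other overlaps were counted to the wrong gene was not tested.

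The telomerase ribonucleoprotein and its assembly factors were read from a list of 15 genes, all tested, of which 1 was called higher and 1 lower. Their median log2 fold change was -0.04. *Nop10*, a small core protein of the box H/ACA particle that holds *Terc*, had 8323, 7992 and 8397 normalized counts in WT and 5095, 5249 and 5480 in UTX TCD libraries. All UTX TCD libraries were lower (log2 fold change of -0.64, SE 0.05, limma adjusted p = 1.53e-05). *Tep1*, a telomerase-associated protein that is also a component of vault particles, had 7543, 7471 and 7761 in WT and 10752, 10811 and 11412 in UTX TCD libraries. All UTX TCD libraries were higher (log2 fold change of 0.53, SE 0.04, limma adjusted p = 2.66e-05), only just past the fold limit. At the adjusted p alone, 3 of the 15 were higher and 5 were lower, against 20.2% and 20.5% of all genes tested. *Nhp2*, another box H/ACA protein, was among the 5 and is named after its value was seen (log2 fold change of -0.35, SE 0.06, limma adjusted p = 0.00276).

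The RNA subunit *Terc*, also named after its values were seen, had only 13.9, 6.91 and 7.63 normalized counts in WT and 20.2, 15.2 and 13.3 in UTX TCD libraries. The groups overlapped and the difference did not pass the test (log2 fold change of 0.76, SE 0.41, limma adjusted p = 0.172). The libraries were made with an mRNA kit, and *Terc* is not polyadenylated, so its low level here is not a measure of the RNA in the cells.

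Of 14 genes for the CST complex and telomere replication, all tested, 1 was called higher and none lower, with a median log2 fold change of 0.10. *Pif1*, a DNA helicase whose yeast homolog removes telomerase from telomeres, had 132, 114 and 138 normalized counts in WT and 238, 227 and 376 in UTX TCD libraries. The UTX TCD libraries were all higher, with library 3 apart from the other two (log2 fold change of 1.09, SE 0.21, limma adjusted p = 0.00328). At the adjusted p alone, 5 of the 14 were higher and 2 were lower, against 20.2% and 20.5% of all genes tested. Those 7 included, chosen after their values were seen, *Ctc1*, the largest CST subunit (log2 fold change of 0.45, SE 0.06, limma adjusted p = 0.000294), and *Stn1*, its partner (log2 fold change of -0.21, SE 0.06, limma adjusted p = 0.0259), which differed from WT in opposite directions.

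Shelterin regulators and telomere chromatin were read from 8 genes, of which 1 was called higher and 0 lower (median log2 fold change of 0.03). *Daxx*, which with ATRX loads the histone variant H3.3 at telomeres, had 16217, 15746 and 16870.3 normalized counts in WT and 28054, 29181 and 23442 in UTX TCD libraries. All UTX TCD libraries were above the WT range (log2 fold change of 0.72, SE 0.08, limma adjusted p = 0.000117). Of 9 genes for end-signaling kinases and break repair, 0 were called with limma, edgeR or DESeq2. An unadjusted limma p under 0.05 was found for 4 of these 9 genes. An adjusted p under 0.05 was found for 3 of these 9 genes and for 40.7% of all genes tested. The most abundant of them were *Atm* (log2 fold change of 0.03, SE 0.06, limma adjusted p = 0.744) and *Prkdc* (log2 fold change of 0.30, SE 0.06, limma adjusted p = 0.00305). The 3 meiotic telomere genes were too low to test; *Terb1* had 0.763 to 11.2 normalized counts and *Majin* 0 to 4.95 across the 6 libraries.

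Over the 5 lists together, 46 of 49 genes were tested, and 3 were called higher and 1 lower (8.7%, against 17.6% of all genes tested). Their median log2 fold change was 0.03. At the adjusted p alone, 13 were higher and 7 lower, against 5887 of 14459 genes (40.7%; 20.2% higher and 20.5% lower).

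**Figure D2:**
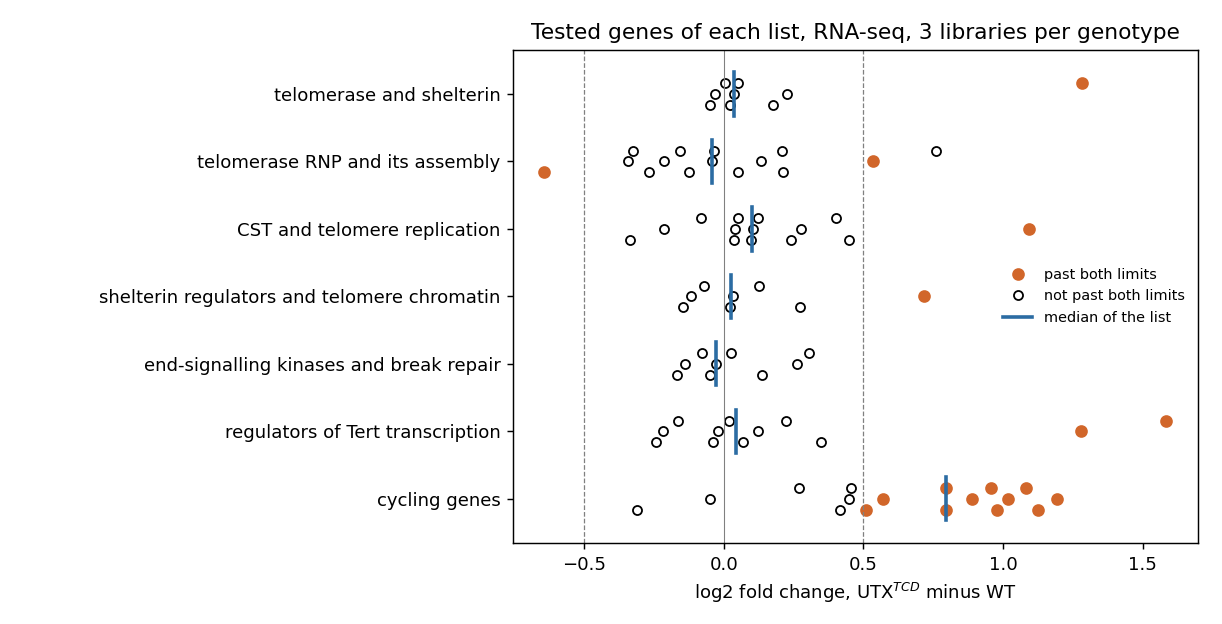
Each point is a tested gene, placed by its log2 fold change, UTX TCD minus WT, with filled points past both limits, blue bars at list medians and dashed lines at -0.5 and 0.5. The telomere lists have medians between -0.04 and 0.10, and the cycling genes one of 0.79.

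Candidate regulators of *Tert* transcription were read from a list of 12 genes, all tested. Whether each of them acts on the *Tert* promoter in these cells was not tested. Of these, 2 were called higher and 0 lower (16.7%, against 17.6% of all genes tested), and the median log2 fold change was 0.04. *E2f1*, a cell cycle transcription factor, had 414, 540.0 and 512 normalized counts in WT and 1341, 1566 and 1482 in UTX TCD libraries. The groups were far apart (log2 fold change of 1.59, SE 0.12, limma adjusted p = 1.55e-05). *Mxd3*, a MAX partner of the MAD family, had 121, 99.7 and 83.9 in WT and 214, 247 and 279 in UTX TCD libraries, again with all UTX TCD values above the WT range (log2 fold change of 1.28, SE 0.19, limma adjusted p = 0.000764). At the adjusted p alone, 4 of the 12 were higher and 3 were lower, against 40.7% of all genes tested in either direction.

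Cycling genes were higher as well. Of 17 genes, all tested, 11 were called higher and 0 lower (64.7%), and their median log2 fold change was 0.79. Their summed level was 130667, 142586 and 134439 normalized counts in WT and 189679.8, 195793 and 209908 in UTX TCD libraries, with *Mcm6* the most abundant. All 3 UTX TCD sums were above all 3 WT sums. The largest differences were those of *Top2a*, which untangles DNA (log2 fold change of 1.19, SE 0.11, limma adjusted p = 4.14e-05), *Ccne2*, an S phase entry cyclin (1.13, SE 0.13, adjusted p = 0.000184), and the proliferation marker *Mki67* (1.08, SE 0.09, adjusted p = 3.25e-05). *Ccna2*, *Rrm2* and *Cdk1* followed, with log2 fold changes of 1.02, 0.98 and 0.96 (limma adjusted p of 0.000146, 0.000248 and 0.000423). *Pcna* and *Ccne1*, named after their values were seen, were not higher, at -0.05 (SE 0.04, limma adjusted p = 0.336) and -0.31 (SE 0.07, limma adjusted p = 0.00498). The part of cycling cells in the *Tert* value was not tested.

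Markers of other cells were also read in each library. The 4 CD4 T cell markers summed to 518, 413 and 490.4 normalized counts in WT and to 391, 382 and 369 in UTX TCD libraries, with *Foxp3* the most abundant. *Cd4* and *Zbtb7b* were called lower; the *Cd4* call (log2 fold change of -0.74, SE 0.24, limma adjusted p = 0.0384) was lost when any library other than UTX TCD library 2 was left out, with an adjusted p between 0.0619 and 0.101, and also with DESeq2 (adjusted p = 0.0573), without the filter on low values (limma adjusted p = 0.0673) and with libraries set to the same sum (limma adjusted p = 0.0543). The 6 B cell markers summed to 114598, 97129 and 106581 in WT and to 96060.2, 90736 and 82282 in UTX TCD libraries, almost all of it *Ighm*. Without *Ighm* the sums were 2951, 2437 and 2800 in WT and 1221, 1082 and 1000 in UTX TCD libraries. *Cd79b* had 2502, 1930 and 2465 normalized counts in WT and 648, 633 and 470 in UTX TCD libraries. It was called lower (log2 fold change of -1.98, limma adjusted p = 1.47e-05). *Ms4a1* was called higher, from 5.94, 19.7 and 8.39 in WT to 20.2, 29.6 and 73.0 in UTX TCD libraries (limma adjusted p = 0.0367). *Pax5*, named after its values were seen, was the lowest of the 6, between 0 and 11.1 normalized counts. The *Ms4a1* call was lost without WT library 1 or 3 or UTX TCD library 2 or 3, with an adjusted p between 0.0681 and 0.119. The 7 myeloid markers summed to 4594, 4028 and 3321 in WT and to 3462, 2658 and 2622 in UTX TCD libraries, nearly all of it *Cst3*; *Itgax* and *Csf1r* were low and called lower, and *Cd14*, also named after its values were seen, was at 0 in 3 libraries. The part of these markers in the telomerase and shelterin values was not tested.

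The genes whose profile over the 6 libraries was most like that of *Tert*, by the Euclidean distance of log2(normalized count + 1) centered on the WT mean, were *Kntc1*, *Mocos*, *Stmn1*, *Trp53inp2* and *Dna2*. *Kntc1*, a kinetochore protein, was nearest at a distance of 0.18, with 1181, 1313 and 1173 normalized counts in WT and 2618, 2823 and 3044 in UTX TCD libraries. *Mocos*, a molybdenum cofactor sulfurase, had 177, 183 and 183 in WT and 434, 476 and 435 in UTX TCD libraries. The 5 log2 fold changes were 1.21, 1.30, 1.20, 1.32 and 1.26 in the order named, and all 5 genes were called (limma adjusted p of 8.1e-06, 4.65e-05, 5.03e-06, 8.08e-06 and 2.79e-05). They were picked for likeness to *Tert*, so these values describe the choice. *Dna2* encodes a nuclease and helicase that processes DNA ends. With a pseudocount of 5, 3 of the 5 were still among the nearest.

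*Tert* lies on the forward strand at chr13:73626911-73649843 (GRCm38, the build of mm10). The nearest tested gene before it, *Clptm1l*, which was not called and is named after its values were seen, ends 6272 bases away and had a log2 fold change of -0.08 (SE 0.04, limma adjusted p = 0.13). The nearest tested gene after it, *Slc6a19*, a transporter of neutral amino acids on the reverse strand, lies 29902 bases beyond its end and overlaps the antisense RNA *Slc6a19os* at its 5′ end. *Slc6a19* had 280.3, 327 and 266 normalized counts in WT and 951, 1007 and 649 in UTX TCD libraries, all of them above the WT range (log2 fold change of 1.55, SE 0.17, limma adjusted p = 0.000146). *Slc6a18*, which lies between the pair and is named after its values were seen, had at most 2 reads in any library. Over all 9 genes the nearest tested genes on both sides comprised 17 different genes, of which 3 were called, a share like the 17.6% of all genes tested. All 3 were higher: *Slc6a19*, *Sbspon*, 9810 bases from *Terf1* (log2 fold change of 0.74, SE 0.19, limma adjusted p = 0.0141), and *Sgo1*, a guardian of sister chromatid cohesion 1959859 bases from *Pot1b* (0.96, SE 0.16, adjusted p = 0.00148). The *Sbspon* call was lost without WT library 1 or UTX TCD library 1 or 2, with an adjusted p between 0.0514 and 0.0567.

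ATAC-seq values were the authors' means over the 3 libraries of a genotype, as log2 concentrations of reads in a peak, so they carry no replicate spread here. The table lists only peaks past the authors' limit on the false discovery rate, and a gene without a listed peak may have an open promoter that did not pass it. Of the 9 genes, 3 had a listed peak, against 47.6% of the genes tested. *Tert* had 1 peak, at its promoter at chr13:73626603-73627003, 108 bases before the start site by its center, with mean log2 concentrations of 8.89 in WT and 9.48 in UTX TCD cells. Of the 2621 listed promoter peaks, 85.3% were higher in UTX TCD cells, with a median difference of 0.71 among those that were higher. The difference of 0.59 at *Tert* was under that median. It was larger than the signed difference of 51.4% of all listed promoter peaks, whose median was 0.57, and larger in size than that of 37.9% of all listed peaks. *Tert* mRNA and promoter accessibility were both higher in UTX TCD cells.

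*Terf2ip* had 3 listed peaks, all intergenic and downstream of the gene. The farthest, at chr8:112061346-112061746 and 50187 bases from the start site, went from 5.01 to 6.32, a difference of 1.31. The peaks at chr8:112045912-112046312 and chr8:112034621-112035021 differed by 0.51 and 0.45. *Terf1* had 1, upstream at chr1:15791874-15792274, which went from 6.52 to 7.03. All 5 peaks were higher in UTX TCD cells, as were 68.8% of all listed peaks, while *Terf2ip* and *Terf1* mRNA had log2 fold changes of 0.02 and 0.05. *Terf2*, *Tinf2*, *Acd*, *Pot1a*, *Pot1b* and *Rtel1* had no listed peak under their names. Within 10000 bases of *Rtel1* lay a peak listed under *Stmn3*, at chr2:181314004-181314404 in the first exon of that gene, which went from 6.47 to 7.92, a difference of 1.44; it is named after its values were seen. At *Slc6a19*, in contrast to its higher mRNA, all 3 peaks listed under its name were lower in UTX TCD cells, by -1.22 to -0.30. A peak at chr13:73680478-73680878, in its 3′ UTR and listed under *Slc6a18*, was lower as well, by -1.38.

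**Figure D3:**
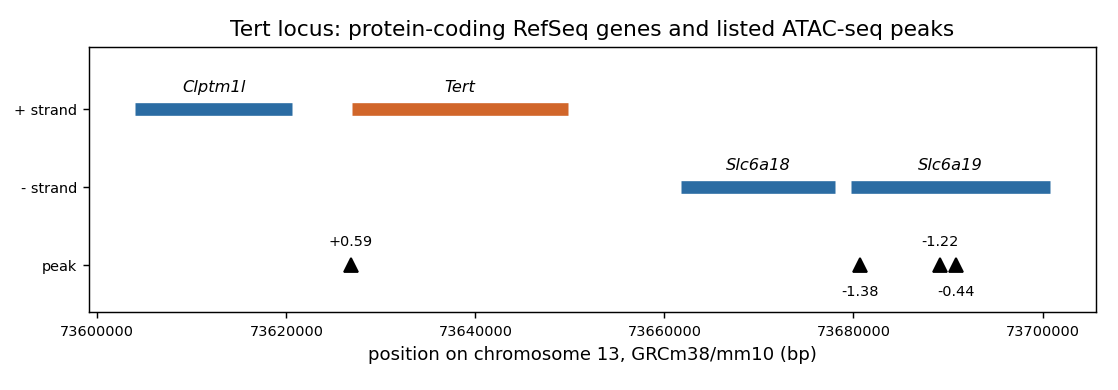
The map shows protein-coding RefSeq genes on both strands of chromosome 13 and, as triangles, the listed ATAC-seq peaks with the difference of the authors' mean log2 concentrations, UTX TCD minus WT. The peak at the *Tert* promoter is at 0.59, and the 3 triangles within the bounds of *Slc6a19* are at -1.38, which the table names for *Slc6a18*, and at -1.22 and -0.44, which it names for *Slc6a19*.

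The promoter of *Tert* is shown because the listed peak covers it. RefSeq promoters of 300 bases were matched for 8 of the 9 genes, *Terf1* being the exception. The 250 bases before the *Tert* start, chr13:73626661-73626910 on the forward strand of GRCm38, all lie in the peak and hold 57.2% G and C. Capitals mark the matches to the GC box GGGCGG on either strand, a motif known to bind the SP family.
*Tert* promoter: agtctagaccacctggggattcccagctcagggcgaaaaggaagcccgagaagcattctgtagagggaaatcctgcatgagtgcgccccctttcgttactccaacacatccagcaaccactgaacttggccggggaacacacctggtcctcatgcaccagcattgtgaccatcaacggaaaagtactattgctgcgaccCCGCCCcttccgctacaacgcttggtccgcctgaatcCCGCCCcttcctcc
The 2 matches begin 51 and 14 bases before the start. GGGCGG was found on either strand in 35.7% of all 32851 promoters of this length, in 66.0% of the 10655 promoters of genes tested and in those of 6 of the 8 matched genes, *Tert*, *Terf2*, *Terf2ip*, *Pot1a*, *Pot1b* and *Rtel1*. The E-box CACGTG was found in 7.15% of all promoters and 11.3% of those of genes tested, and the E2F sequences TTTCGCGC and TTTGGCGC in 0.323% and 0.514% of all and in 0.732% and 1.08% of those of genes tested. None of these 3 was found in the 8 promoters. These are letter matches in a window and not binding sites.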

How the data were processed

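RNA-seq and ATAC-seq of sorted CD8+ T_prog_ cells were used, 3 libraries per genotype and assay, grouped by the sample labels. For RNA-seq, the authors aligned reads to mm10 with HISAT2 2.2.1, counted them per gene with featureCounts and deposited the signal as counts divided by 1 DESeq2 size factor per library. Whole reads were recovered for 100% of values (tolerance of 0.01 read). For ATAC-seq, the authors aligned with Bowtie2, called peaks with MACS2 and deposited DiffBind log2 concentrations averaged by genotype. The p-value and FDR columns that the authors deposited, and their fold changes, hold their own comparison; the FDR column was read only to check the limit of the table, and the others were not used. The gene annotation and strand setting of the read counting, and a shift of ATAC-seq reads for the transposase, are not given in the sources used here.

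The test was limma 3.58.1 (trend, genotype as the only term) in R 4.3.3 on log2(normalized count + 1), which understates the change of low genes, for the 14459 genes whose normalized counts averaged 10 or more, with Benjamini-Hochberg adjustment over all of them. On the recovered reads, edgeR 4.0.16 called 2541 genes and DESeq2 1.42.0 called 2422. The tests were checked on simulated reads. Counted reads ranged from 61512402 to 193568919 per library; 3 reads correspond to normalized counts from 2.21 to 6.75, for counting error only. The labels do not say that RNA-seq libraries came from separate mice, so p-values measure the spread between libraries. Gene positions, exon lengths and promoters came from RefSeq on GRCm38.p6 and covered 96.4% of genes tested. Python 3.11.15 with pandas 2.3.3 was used for summaries.

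The members and lists were chosen with earlier results of these data known. Genes named were the 9 telomerase and shelterin genes, *Kdm6a*, up to 6 called genes per list by absolute log2 fold change or, where none was called, the 2 most abundant, called neighbors, and the 5 genes most like *Tert*. All other genes in the text were named after their values were seen, among them *Pax5*, *Cd14* and *Clptm1l*. Alternatives covered pseudocount, filter, scaling, test, replicate block, fold limit, peak limits and each library left out. The values of 1 gene of the marker lists are left out of the text.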

Additional observations from a re-analysis of the deposited data

How the results depend on the processing

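Across 17 alternatives to the test over all genes, *Tert* had log2 fold changes from 1.23 to 1.35, given as a description. When all libraries were set to 1 total, the median of all genes was 0.06, and *Terf2* was at 0.29, *Terf2ip* at 0.08, *Tinf2* at 0.07 and *Pot1a* at 0.01. Without a fold limit, 5887 genes were called in place of 2538, since more genes can pass. Those past the limit included 2 of the 9 telomerase and shelterin genes in place of 1 (a description). They also included 20 other telomere genes in place of 4 and 6 neighbors in place of 3. Candidate regulators of *Tert* and cycling genes together numbered 23 in place of 13. Leaving out single libraries gave 2164 to 2570 called genes, 1 of the 9, 4 other telomere genes, 12 to 13 regulators and cycling genes and 2 to 3 neighbors. *Atm* moved between -0.016 and 0.067 in such fits, with the sign turned without WT replicate 1 (-0.014) and UTX TCD replicate 3 (-0.016); the cause was not tested. Among the telomerase and shelterin genes, values near 0 turned sign as well: *Tinf2* without WT replicate 2 (-0.0020) or UTX TCD replicate 2 (-0.0015), *Acd* without UTX TCD replicate 1 (-0.0049), and *Rtel1* without WT replicate 3 (0.0063). With single libraries left out, *Terf1* ranged from 0.0089 to 0.116 and *Pot1b* from 0.114 to 0.255. *Terf2ip* ranged from 0.0021 to 0.044 and *Pot1a* from -0.086 to -0.023. *Tep1* was not called at a fold limit of 1.5. Of the 5 peaks, 4 differed by over 0.5 and 1 lay within 1 kb of a start site. The replicate numbers did not pair the libraries: deviations of same-numbered libraries correlated at 0.305, -0.200 and 0.090, and WT replicate 3 correlated best with UTX TCD replicate 2. With the replicate block, 2474 genes were called. *Tert* rested on 308 to 1119 reads per library, and *Terb1* and *Majin* had too few reads to be tested.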

Other observations

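Ratios between paralogs do not depend on the scaling of a library. These were chosen after the values were seen and are given without a test. The ratio of *Terf2* to *Terf1* normalized counts was 1.76, 1.68 and 1.82 in WT and 2.06, 1.97 and 1.92 in UTX TCD libraries. The ratio of *Pot1b* to *Pot1a* was 0.603, 0.678 and 0.595 in WT and 0.714, 0.730 and 0.747 in UTX TCD libraries. These pairs were picked for their values, and no share over other gene pairs was computed, so nothing is read from them.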
